A study of Junonia coenia with 38 samples.

Results

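The step described here runs from 72 h after pupation to the late pupa in the wings of the buckeye butterfly Junonia coenia. It was followed in forewing (FW) and hindwing (HW). It covers 12 of the 38 libraries of the series: 3 forewing and 3 hindwing libraries at 72 h, and 3 of each in the late pupa. The members were taken by the wing and stage that the labels and the headings of the count table give. Of the 38 libraries, 24 are wing libraries with counts, spread over 8 groups of 3, and the other groups are both wings of the 5th larval instar and of the prepupa. All wings came from animals reared at about 27C, with no treatment and no strain named. Poly-A RNA was selected from whole wing tissue. The labels give the late stage as 6 days after pupation and as day 7 in the sample title, and the count columns taken as 72 h are headed d3. The labels do not say whether the libraries of a group came from different animals, so p-values measure the spread between these libraries, which may be technical.

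A butterfly wing is a folded sheet of epithelium covered by an external cuticle. In the pupa, single epithelial cells enlarge into scale cells, lay down a chitin-based scale wall and, late in the stage, fill it with pigment. The moulting hormone ecdysone acts through its receptor EcR, one of the factors named in the title of the series, and paces these steps. Forewing and hindwing are built by the same program, modified in the hindwing.

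Counts were deposited per gene model, a stretch of a contig (an assembled piece of genome) with a first and a last position and no gene name. Models are therefore called contig:first-last, positions counting from 1. Neither the build nor the use of strand was given in the sources used here, and no function can be given for any model. The tissue label could not be checked against marker genes for the same reason. Totals per library lay between 5795618 and 13355152 counts at 72 h and between 8316939 and 12775785 in the late pupa. Of 19234 models, 13282 passed the filter on low counts. Levels are CPM, counts scaled to library totals with TMM factors, which correct for library composition. CPM is not divided by length, so a rank by CPM is a rank by share of counts and not by number of molecules. In whole wings, fewer cells of a type and less RNA per cell cannot be told apart.

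The 3 libraries of a group differed more at 72 h than late. Over the 5819 models with a mean log2 CPM of at least 3 at both stages, the median SD of log2 CPM was 0.290 in 72 h forewings and 0.327 in 72 h hindwings. It was 0.183 and 0.194 in the late pupa. An SD above 1 was seen for 10.3% and 11.1% of these models at 72 h, against 0.962% and 0.945% in the late pupa. The library numbered 3 stood apart at 72 h. Its counts differed from those of numbers 1 and 2 with a chi-square per degree of freedom of 204 to 359, against 65.4 and 70.7 between numbers 1 and 2. Late pairs gave 32.1 to 59.6. No pair of libraries agreed within sampling noise, so all 12 were kept as separate libraries. Values without both 72 h libraries numbered 3 are given for the counts and for the named models that moved by more than 1.5 times.

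About 1 model in 2 changed between these stages in each wing, and the balance of upward and downward changes was nearly even. In the forewing 6932 of 13282 models were called (52.2% of those tested), 3422 higher late and 3510 lower, by edgeR's quasi-likelihood test at a Benjamini-Hochberg adjusted p below 0.05. In the hindwing 6952 were called (52.3%), 3436 higher and 3516 lower. A log2 fold change of at least 1 came with the call in 5242 forewing models (39.5%) and 5337 hindwing models (40.2%). Both wings called 2997 models as risers (22.6%) and 3057 as fallers (23%). Together these are 6054 models called in the same direction (45.6%), and 2 models were called in opposite directions (0.0151%). Wings of the same stage and number may come from the same animal, so this overlap was not tested. For 5476 of the 6054 the CPM values of the stages did not overlap in either wing. These called models make up 41.2% of all tested. How many of all tested models lacked overlap was not worked out. The call itself favours a lack of overlap, so this count is a description and tests nothing. Without both 72 h libraries numbered 3, 5678 models were called in the same direction, of which 5222 were among the 6054 (86.3% of these and 92% of the 5678). With each wing fitted alone on its 6 libraries, 4395 models were called in the same direction.

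In most shared models the wings also changed by similar amounts. Among the 6054 shared models the hindwing and forewing log2 fold changes differed by a median of 0.233. They differed by more than 1 in 700 of them (11.6%). Over all 13282 models the median was 0.251, and 12.3% differed by more than 1. The median SE of the change within a wing was 0.354 in the forewing and 0.360 in the hindwing for the shared models. Wings of the same stage and number deviated together (r from 0.613 to 0.757). These SE therefore do not measure the spread of the difference, and the wings are not independent repeats.

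**Figure D1:**
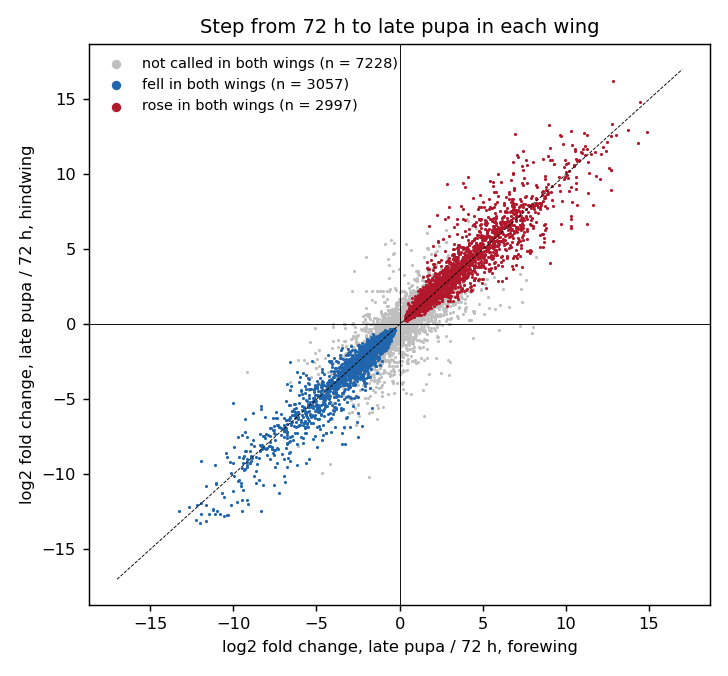
Each point is 1 of 13282 tested gene models; the horizontal axis is the forewing and the vertical axis the hindwing log2 fold change, late pupa over 72 h pupa. Models called in both wings as risers (n = 2997, red) and fallers (n = 3057, blue) lie along the dashed line of equal change, and grey points were not called in the same direction in both wings.

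Small shared changes leaned downward in number, and large ones upward. Below a log2 fold change of 1 in at least 1 wing there were 576 risers and 895 fallers. A log2 fold change of at least 1 in both wings was met by 2421 risers (18.2%) and 2162 fallers (16.3%). At 3 or more there were 1044 risers (7.86%) and 648 fallers (4.88%), and at 5 or more 484 risers (3.64%) and 283 fallers (2.13%). Risers thus made up 61.7% of the shared changes at 3 or more and 63.1% at 5 or more. At 8 or more the numbers were 98 (0.738%) and 82 (0.617%). More models were also detected late. A CPM of 1 or more was reached by 11231 to 11401 models per late library, and by 10604 to 10904 per 72 h library, without overlap.

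The changing models held most of the RNA counted at the stage where they were high. The 3057 fallers held 69.1% ± 0.957 (SD, n = 3) of the counts of 72 h forewings and 71.1% ± 0.213 of 72 h hindwings. In the late pupa they held 11.1% ± 0.746 and 11.2% ± 0.552. The 2997 risers went the other way, from 6.85% ± 0.717 and 6.06% ± 0.555 at 72 h to 65.1% ± 2.06 and 64.2% ± 1.42 late. The models were chosen by this same contrast, so these shares describe the size of the exchange and test nothing.

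**Figure D2:**
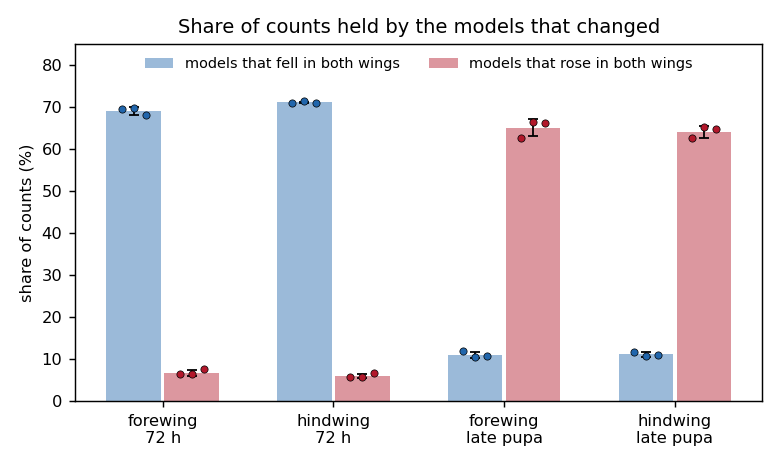
Bars give the mean share of a library's counts (percent, axis from 0) held by models that fell (blue) or rose (red) in both wings, with 1 point per library and error bars of 1 SD (n = 3). Fallers held 69.1% and 71.1% of the counts at 72 h and about 11% late, and risers 6.85% and 6.06% at 72 h and 65.1% and 64.2% late.

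Much of the exchange was carried by the models of the steepest change. Risers with a log2 fold change of at least 3 held 0.513% ± 0.111 of 72 h forewing counts and 0.485% ± 0.148 of 72 h hindwing counts. They held 47.7% ± 2.62 and 45.3% ± 1.61 late. Fallers of that size went from 42.4% ± 2.10 and 46.9% ± 2.80 to 0.431% ± 0.0254 and 0.417% ± 0.0110. The leading models were replaced. Of the 10 models with the highest mean CPM at 72 h all 10 fell in both wings, and of the 10 highest late 8 rose and 2 were not called in both wings. The lists of 10 share 0 models, and the lists of 100 share 23. Of all tested models 23% fell and 22.6% rose in both wings. The lists were ranked by the stage means that the contrast compares, so they lean toward these calls and test nothing.

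The models highest in the late pupa went from at most 238 CPM in any 72 h library to at least 9717 CPM in every late one. By the naming rule these are 5 models with no overlap between stages. Model 000001F:4800240-4804348 stood at 129, 59.3 and 1.07 CPM in the 3 forewing libraries at 72 h and at 238, 102 and 1.28 CPM in the hindwing libraries. In the late pupa it stood at 86304, 107592 and 101828 CPM in forewings and 78753, 79710 and 73154 CPM in hindwings. All 6 late libraries were far above all 6 at 72 h, and number 3 was the lowest 72 h library in both wings. The log2 fold change was 10.61 ± 2.02 (SE) in the forewing (edgeR adjusted p = 0.000238) and 9.41 ± 1.93 in the hindwing (adjusted p = 0.000478). Leaving out 72 h number 1 raised these to 11.67 and 10.56.

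Model 000021F:1183430-1184569 came next. It stood at 12.5, 33.6 and 2.58 CPM in 72 h forewings and 170, 94.4 and 1.74 CPM in 72 h hindwings. Late values were 44049, 86039 and 81062 CPM in forewings and 53467, 78929 and 87223 CPM in hindwings. Again number 3 was lowest at 72 h, and the stages did not overlap. The log2 fold change was 12.08 ± 1.76 in the forewing and 9.69 ± 1.61 in the hindwing (edgeR adjusted p = 1.36e-05 and 5.93e-05). It was 13.19 in the forewing without 72 h number 2, and 10.58 in the hindwing without 72 h number 1.

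Model 000019F:1917711-1926121 stood at 23.6, 49.2 and 17.2 CPM in 72 h forewings and 12.1, 55.2 and 3.75 CPM in 72 h hindwings. Late it stood at 32416, 28537 and 25369 CPM in forewings and at 26218, 16560 and 15540 CPM in hindwings. Late forewings were all above late hindwings except that forewing number 3 (25369) was below hindwing number 1 (26218). The log2 fold changes were 9.90 ± 0.987 and 9.69 ± 0.980, and the hindwing value was 11.27 without 72 h number 2. The other 2 were 000282F:365304-368722, with late values of 13559 to 22670 CPM against at most 32.5 at 72 h, and 000021F:1171187-1173474, with late values of 9717 to 24187 CPM against at most 27.6. Their log2 fold changes were 11.41 ± 1.51 and 11.79 ± 1.62 in the forewing and 10.07 ± 1.43 and 9.91 ± 1.51 in the hindwing. Leaving out 1 of the 72 h libraries in turn moved these to between 9.33 and 12.57, with 72 h number 2 moving both in the forewing and 72 h numbers 1, 2 or 3 moving them in the hindwing. Without both 72 h libraries numbered 3 the hindwing value of 000021F:1171187-1173474 was 9.32. Together the 5 models held 20.55% ± 2.69 of late forewing counts and 18.81% ± 1.18 of late hindwing counts, and 0.0108% and 0.0195% of the counts at 72 h.

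**Figure D3:**
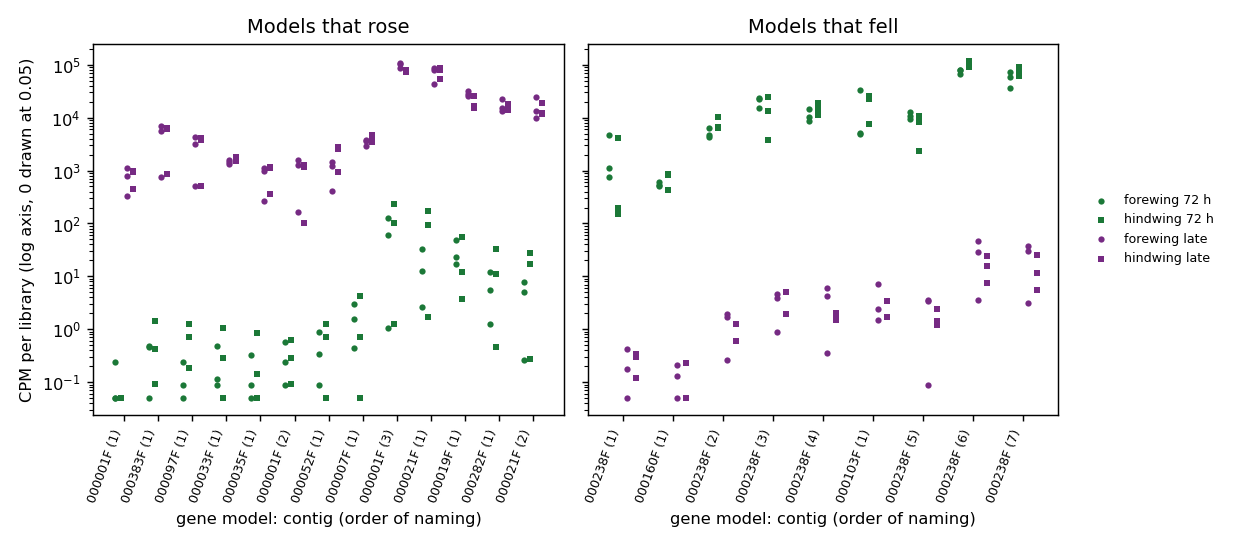
CPM of the models named for the steepest rise or the highest late level (left) and for the steepest fall or the highest 72 h level (right), on a log axis with 0 drawn at 0.05; circles are forewing and squares hindwing libraries, green 72 h and purple late, and models are shown by contig with their order of naming. In every model the 6 late libraries lie on one side of the 6 libraries at 72 h, and the late level of the 5 models at the right of the left panel lies between 9717 and 107592 CPM.

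The steepest risers were close to absent at 72 h. The 8 models with the largest mean fitted change had at most 4.17 CPM in any 72 h library and 103 to 6907 CPM in the late libraries. Their log2 fold changes lay between 11.00 and 14.32 in the forewing and between 11.44 and 16.25 in the hindwing (largest edgeR adjusted p = 1.34e-06 and 1.17e-06). With so few counts at 72 h, the fitted fold changes move with single libraries. Leaving out each library in turn gave 10.54 to 16.16 in the forewing and 10.73 to 16.54 in the hindwing, with an adjusted p of at most 2.62e-05 and 2.00e-05. Dropping 72 h number 2 moved the fold by more than 1.5 times for 6 of the 8 in the forewing and 7 of the 8 in the hindwing. Dropping 72 h number 3 did so for 1 and 6 of them, and dropping 72 h number 1 for 1 in the forewing. Without both 72 h libraries numbered 3 the forewing value of 000383F:322193-323813 went from 13.74 to 13.15. The hindwing values of this model, 000033F:427183-429058, 000035F:333792-336535, 000001F:4716481-4724169, 000052F:1734360-1738863 and 000007F:814015-828289 went to 12.30, 11.37, 10.98, 10.91, 11.10 and 10.75.

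The first of these, 000001F:4496359-4498016, had 3 counts in all 72 h forewings together and 0 in all 72 h hindwings. Late forewings held it at 332, 796 and 1098 CPM and late hindwings at 455, 934 and 969 CPM. In the forewing the ratio of rates was 8530-fold, with an exact 95% counting interval of 2918 to 41364. In the hindwing it was at least 6006-fold higher late, with the floor set at 3 counts for the 3 libraries together. Intervals and floors cover counting error only, since PCR copies are not independent molecules.

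Model 000383F:322193-323813 stood at 0.451, 0.489 and 0 CPM in 72 h forewings and 0.422, 1.46 and 0.0915 CPM in 72 h hindwings. Late it stood at 742, 5516 and 6907 CPM in forewings and 850, 6152 and 6415 CPM in hindwings. Late number 1 was well below numbers 2 and 3 in both wings. The same late order was seen for 000097F:529539-531229, which stood at 517, 3129 and 4407 CPM in late forewings and 506, 4159 and 3816 CPM in late hindwings. In 000001F:4716481-4724169 late number 1 stood at 161 CPM in the forewing and 103 CPM in the hindwing, against 1149 to 1578 CPM in numbers 2 and 3. In 000035F:333792-336535 it stood at 271 and 356 CPM, against 986 to 1171 CPM.

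Other steep risers did not share this order. Model 000033F:427183-429058 had an even late level, at 1351, 1578 and 1464 CPM in forewings and 1519, 1775 and 1575 CPM in hindwings. In 000052F:1734360-1738863 the low late library was number 2, at 415 CPM in the forewing and 959 CPM in the hindwing, where the others lay between 1235 and 2734 CPM. Model 000007F:814015-828289 was at 2938 to 4659 CPM in the 6 late libraries. Forewing and hindwing of one number moved together here as in the data at large: deviations from the group mean correlated across models in all 6 pairs of wings with the same stage and number (r from 0.613 to 0.757, across models, which are not independent replicates).

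The models named as highest at 72 h fell to at most 46.4 CPM in any late library. Model 000238F:382989-387955 stood at 79281, 79612 and 68199 CPM in 72 h forewings and 118886, 99347 and 91475 CPM in 72 h hindwings. In the late pupa it stood at 46.4, 29.2 and 3.50 CPM in forewings and 24.4, 15.4 and 7.60 CPM in hindwings. The late libraries numbered 3 were the lowest in both wings, and hindwings were above forewings at 72 h in all 3 numbers. Its log2 fold change was −11.49 ± 1.41 (SE) in the forewing and −12.67 ± 1.47 in the hindwing (edgeR adjusted p = 1.90e-06 and 9.42e-07). Without late number 1 the forewing value was −12.18.

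Model 000238F:575512-582415 stood at 74697, 59708 and 35780 CPM in 72 h forewings and 89780, 74219 and 61303 CPM in 72 h hindwings. It was at 38.1, 30.0 and 3.06 CPM in late forewings and 25, 11.6 and 5.46 CPM in late hindwings. At both stages and in both wings, number 3 was the lowest of the 3 libraries. Its log2 fold changes were −11.23 ± 1.35 and −12.39 ± 1.40, and the hindwing value was −13.10 without late number 1. In 000103F:1066390-1070033 number 3 was instead the highest at 72 h: 5112, 4967 and 33735 CPM in forewings and 22835, 7620 and 25490 CPM in hindwings. This model was at 1.49 to 7.30 CPM in the 6 late libraries, with log2 fold changes of −11.94 ± 1.28 and −12.68 ± 1.31. The forewing value was −10.41 without 72 h number 3 and −12.86 without late number 1. With 000238F:397096-402452 and 000238F:544850-569279, these are the 5 highest fallers at 72 h. They held 17% ± 1.67 of 72 h forewing counts and 18.9% ± 2.26 of 72 h hindwing counts, and 0.00547% and 0.00351% of the late counts.

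The 8 steepest fallers overlapped that list. Their log2 fold changes lay between −13.28 and −11.49 in the forewing and between −13.23 and −12.06 in the hindwing (largest edgeR adjusted p = 6.82e-06 and 1.04e-05). Leaving out each library in turn gave −14.25 to −10.41 and −16.11 to −9.33. The lowest and the highest hindwing values came without late number 1 for 000160F:1039013-1042994 and without 72 h number 3 for 000238F:490813-491607. Dropping 72 h number 3, late number 1 or late number 2 moved between 1 and 3 of the 8 models by more than 1.5 times in each wing, and dropping late number 3 moved 1 in the forewing and 0 in the hindwing. Without both 72 h libraries numbered 3, 000238F:490813-491607 stood at −12.08 in the forewing and −9.33 in the hindwing, 000238F:397096-402452 at −11.52 in the hindwing and 000103F:1066390-1070033 at −10.42 in the forewing.

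Model 000160F:1039013-1042994 had an even 72 h level in the forewing, and in the hindwing number 3 was the lowest. It stood at 539, 521 and 613 CPM in 72 h forewings and 840, 861 and 424 CPM in 72 h hindwings. Only 3 counts were left in the late forewings and 2 in the late hindwings, a ratio of rates of 5320 (95% counting interval 1820 to 25802) and 8793 (2434 to 72611), higher at 72 h. Model 000238F:490813-491607 was uneven at 72 h, with number 3 the highest in both wings. It stood at 1121, 770 and 4625 CPM in 72 h forewings and 149, 194 and 4072 CPM in 72 h hindwings, and at no more than 0.427 CPM late.

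A block of 16 neighbouring models on contig 000238F fell together. A run was defined as at least 4 tested models next to each other on a contig, all called in both wings with one direction and an absolute log2 fold change of at least 2. There were 48 runs of risers with 228 models and 19 runs of fallers with 95 models. With no minimum fold change there were 115 and 105. Risers of that size in both wings made up 11.8% of all tested models and fallers 8.4%. The longest run of all was the one on 000238F, from 195029 to 582415, a stretch of 387 kb. On this contig 17 of the 19 tested models fell in both wings (89.5%, against 23% of all tested models) and 0 rose. The contig was picked for its run, and the 16 models of the run are among the 17. A high share therefore follows from the choice and tests nothing.

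These 16 models held 19.6%, 19.75% and 17.95% of the counts in the 3 forewing libraries at 72 h, and 21.54%, 20.66% and 21.96% in the hindwing libraries. The means were 19.1% ± 1.0 and 21.4% ± 0.666, so the summed share was similar between the libraries of a wing. This is a share of counts without TMM factors, and it leans on the most abundant of the 16 models. In the late pupa they held 0.00729% in forewings and 0.00541% in hindwings. They were as scarce before 72 h, with 0.00546% and 0.00199% in the prepupa and 0.00239% and 0.00252% in the 5th instar. All 16 had their highest stage mean at 72 h in both wings. Their log2 fold changes to the late pupa lay between −13.28 and −5.34 in the forewing and between −13.23 and −4.30 in the hindwing (largest edgeR adjusted p = 0.000553 and 0.000318). The weakest, 000238F:449359-450789, stood at −2.62 in the hindwing without 72 h number 3, and at the same value without both libraries of that number.

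Inside the block the libraries numbered 3 at 72 h went both ways. Model 000238F:300560-303753 stood at 11368, 6294 and 3.83 CPM in 72 h forewings and at 42291, 18043 and 203 CPM in 72 h hindwings. Here number 3 was the lowest in both wings, and in the forewing it lay within the late values of 1.23 to 12.2 CPM. It was the only 1 of the 16 models with an overlap, and the overlap was in the forewing. Model 000238F:282087-290733 had the same order, at 20199, 19111 and 701 CPM in forewings and 12959, 17475 and 7805 CPM in hindwings. At the start of the block the order turned. Model 000238F:195029-199449 stood at 60.001, 88.2 and 975 CPM in 72 h forewings and 221, 90.2 and 474 CPM in 72 h hindwings, with number 3 the highest. In 000238F:413397-415210, number 3 stood at 765 CPM in the forewing and 381 CPM in the hindwing, against 26.0 to 240 CPM in numbers 1 and 2. Over the 16 models number 3 was the highest 72 h library in both wings for 5 and the lowest in both wings for 5. In the other 6 its place differed between the wings or was in the middle: it was the lowest forewing and the highest hindwing library for 000238F:449359-450789, and the reverse for 000238F:333724-339107.

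**Figure D4:**
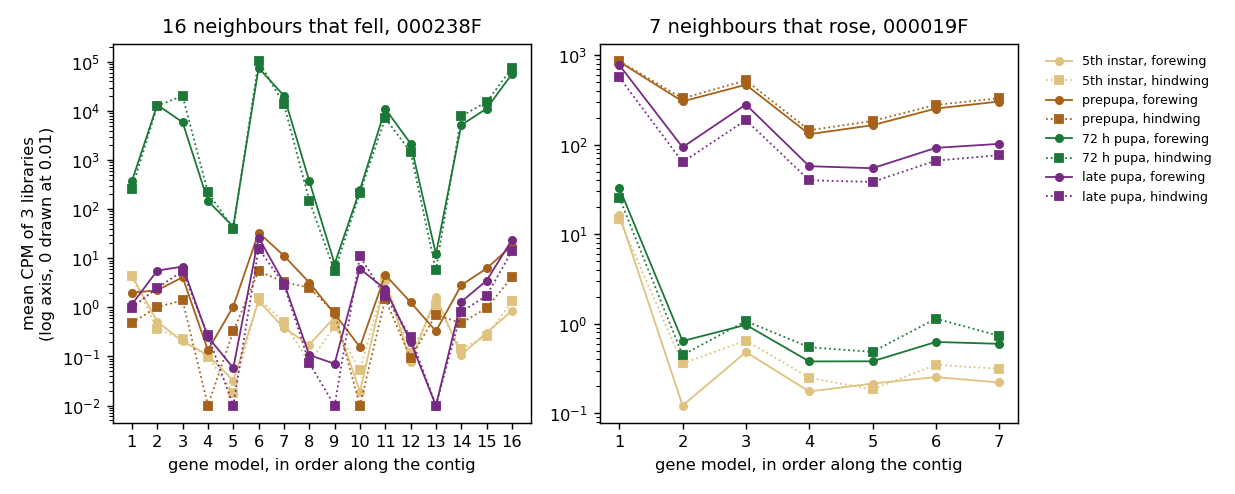
Mean CPM of 3 libraries (log axis, 0 drawn at 0.01) for the 16 neighbours on 000238F that fell (left) and the 7 on 000019F that rose (right), in order along each contig, with forewing as circles, hindwing as squares and 1 colour per stage. On 000238F the 72 h lines lie above the lines of the other stages for all 16 models, and on 000019F the prepupa is highest and the late pupa next for all 7.

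Among risers 5 runs of 7 models tied as the longest, and the 2 with the larger mean absolute log2 fold change are described. The other 3 lay on 000033F (301586 to 429058), 000039F (77244 to 319426) and 000113F (846558 to 1147634), with log2 fold changes between 2.60 and 12.50 in the forewing and between 3.17 and 12.17 in the hindwing. Of the pair described, one repeated a prepupal pattern. It held 7 short models on contig 000019F, from 1837687 to 1875694 (38 kb), with spans of 921 to 1598 bases. The strongest, 000019F:1851507-1852847, stood at 0.113, 2.36 and 0.445 CPM in 72 h forewings and 0.141, 2.71 and 0.366 CPM in 72 h hindwings. Late it stood at 262, 153 and 424 CPM in forewings and 173, 115 and 276 CPM in hindwings. Late number 2 was the lowest in both wings, and 72 h number 2 was the highest. It rose by 8.09 ± 1.28 (SE) and 7.68 ± 1.30 on the log2 scale (edgeR adjusted p = 3.52e-05 and 6.97e-05), and by 9.85 and 9.38 without 72 h number 2.

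The weakest of the 7, 000019F:1837687-1839284, was not absent at 72 h. It stood at 45.9, 35.8 and 17.4 CPM in 72 h forewings and 31.5, 28.5 and 16.8 CPM in 72 h hindwings, and at 918, 558 and 847 CPM in late forewings and 626, 456 and 617 CPM in late hindwings. It rose by 4.55 ± 0.440 and 4.47 ± 0.440. All 7 models had their highest mean in the prepupa in both wings. For 000019F:1851507-1852847 the prepupal means were 465 ± 178 CPM (SD, n = 3) in forewings and 521 ± 216 CPM in hindwings, against 280 ± 137 and 188 ± 81.6 CPM in the late pupa. The run lies on the same contig as 000019F:1917711-1926121, which had 1651 ± 533 and 2509 ± 414 CPM in the prepupa. In that model the late pupa, and not the prepupa, was the highest stage.

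The other run of risers described here, 7 models on contig 000478F from 38346 to 195012 (157 kb), stayed at a low level. Its highest late mean was 7.33 CPM, and 7 of the 13 tested models of the contig rose (53.8%, against 22.6% of all tested models). These 7 are the run by which the contig was picked, so the share is no further evidence. Log2 fold changes lay between 5.07 and 8.77 in the forewing and between 5.2 and 8.85 in the hindwing. Its strongest model by the mean fitted change, 000478F:147002-151903, had 0 counts in 72 h forewings and 1 in 72 h hindwings. That count put 72 h hindwing number 2 at 0.208 CPM, above the lowest late hindwing, so the stages overlapped in this wing. The model stood at 3.46, 0.640 and 9.01 CPM in late forewings and 2.70, 0.201 and 10.2 CPM in late hindwings, again with numbers in the same order in both wings. It was at least 51.3-fold higher late in the forewing, with the same floor of 3 counts for the group. In the hindwing the ratio was 93.9 (95% counting interval 16.5 to 3740), and the fitted call there was lost without hindwing 72 h number 3 (edgeR adjusted p = 0.0531) and without both 72 h libraries numbered 3 (adjusted p = 0.0514). Late number 3 carried most of this model. Without it the fitted log2 fold change went from 8.77 to 7.66 in the forewing and from 6.28 to 4.70 in the hindwing, while without hindwing 72 h number 2 the hindwing value was 8.79. The weakest model, 000478F:68751-80321, stood at 7.30, 2.03 and 8.84 CPM in late forewings and 8.45, 2.51 and 11.0 CPM in late hindwings, against at most 0.625 CPM at 72 h. Its hindwing log2 fold change was 5.2 ± 0.862, and 6.84 without hindwing 72 h number 2.

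The second run of fallers, 6 models on contig 000073F from 1245139 to 1322929 (77.8 kb), was gentler. Its log2 fold changes lay between −6.17 and −2.17 in the forewing and between −6.10 and −2.03 in the hindwing. Model 000073F:1282649-1300413 stood at 49.3, 73.7 and 53.6 CPM in 72 h forewings and 19.3, 53.3 and 64.6 CPM in 72 h hindwings, and at 8.35 to 17.7 CPM in the late libraries. Its highest stage was the prepupa, with means of 431 ± 27.1 CPM for forewings and 235 ± 65.1 CPM for hindwings. At the other end, 000073F:1262926-1268417 had 0 counts in all 6 late libraries and 13 and 18 counts at 72 h, at least 3.83-fold and 7.16-fold higher at 72 h against a floor of 3 counts. Without hindwing 72 h number 3 its fitted hindwing log2 fold change moved from −6.10 to −4.69, as it did without both libraries numbered 3, and without forewing 72 h number 2 its forewing value moved from −5.29 to −4.34.

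Neighbours of the highest late models did not all rise with them. These neighbours were chosen after their values were seen, within 50 kb of the named models. On contig 000021F, 4 risers lay side by side from 1171187 to 1195635. Between and beside the abundant pair described above, 000021F:1175247-1182835 rose to means of 16.5 and 16.9 CPM in late forewings and hindwings, and 000021F:1184847-1195635 to 8.66 and 9.11 CPM. The next model, 000021F:1200159-1207008, fell from 941 and 826 CPM to 36.9 and 39.6 CPM (log2 fold changes −4.67 ± 0.545 and −4.39 ± 0.538).

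On contig 000001F a riser and a faller were adjacent. Within 50 kb of 000001F:4800240-4804348, 2 of the 8 tested neighbours rose and 1 fell, where 22.6% and 23% of all tested models did so. The model after 000001F:4800240-4804348 is 000001F:4814900-4819909. It fell from means of 10661 CPM in 72 h forewings and 13546 CPM in 72 h hindwings to 7.20 and 4.74 CPM late, with log2 fold changes of −10.54 ± 0.984 and −11.48 ± 1.02 (edgeR adjusted p = 7.21e-08 and 3.72e-08). The next one, 000001F:4826352-4832475, rose from 1.77 and 2.54 CPM to 111 and 104 CPM. On the other side, the adjacent 000001F:4797987-4799918 rose too, by 2.73 ± 0.758 and 3.75 ± 0.845 on the log2 scale, but to means of only 1.29 and 1.90 CPM late. Farther along, 000001F:4793953-4795031 was below 1.1 CPM at both pupal stages after prepupal means of 2934 CPM in forewings and 286 CPM in hindwings. Models with opposite steps thus stood side by side, as a description and with no test of their arrangement. Around 000282F:365304-368722, 4 of the 7 tested neighbours within 50 kb fell and 0 rose (23% and 22.6% of all tested models did so), among them 000282F:339924-341373, from 4331 and 12036 CPM to 2.87 and 1.72 CPM. Around 000019F:1917711-1926121 it was the reverse, and 7 of the 11 tested neighbours rose and 0 fell.

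The earlier stages divide the changing models. Of the 2997 risers, 2013 (67.2%) had the late pupa as their highest stage over both wings, 592 (19.8%) the prepupa and 392 (13.1%) the 5th instar. Of the 3057 fallers, 1844 (60.3%) were highest at 72 h, 821 (26.9%) in the 5th instar and 392 (12.8%) in the prepupa. With a log2 fold change of at least 2 in both wings, 324 of the 1569 risers (20.7%) were highest in the prepupa and 61 (3.89%) in the 5th instar. Of the 1116 fallers of that size, 178 (15.9%) were highest in the 5th instar and 87 (7.8%) in the prepupa. Prepupal peaks thus stood behind larval ones among large fallers and ahead of them among large risers, as counts of models and with no test of the difference. By definition no riser can be highest at 72 h and no faller late, which fixes part of these shares. The shares over all tested models were not worked out, so nothing is concluded from the order.

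Among the 13282 tested models, switches between near absence and presence numbered 155 upward and 61 downward. A mean below 0.5 CPM in both wings at 72 h and at least 10 CPM in both wings late was met by the 155, all called in both wings. The reverse was met by the 61, also all called. Of the 155, 70 were below 0.5 CPM in both wings at both earlier stages too, 39 had been at 10 CPM or more in at least 1 wing of the prepupa, and 1 in the 5th instar. Of the 61, 25 were below 0.5 CPM at both earlier stages, 13 had been at 10 CPM or more in the 5th instar and 12 in the prepupa. These classes use the stage means themselves, so the calls are no further evidence. Their levels at the earlier stages were not compared with those of all tested models.

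A sizeable set of models could be bounded as steady. For 2414 models (18.2% of those tested) the 95% interval of the log2 fold change lay between −1 and 1 in both wings. Another 3619 models were called in neither wing and not bounded in this way, so for them the data leave the step undetermined. The abundant steady models were named by mean CPM. Model 000062F:1499420-1505484 stood at 2197, 2018 and 1815 CPM in 72 h forewings, 2262, 1986 and 1852 CPM in 72 h hindwings, 2120, 1870 and 1865 CPM in late forewings and 2130, 1648 and 1734 CPM in late hindwings. The stages overlapped in both wings. Its log2 fold changes were −0.04 ± 0.18 and −0.15 ± 0.18, and the farthest bound of either interval was 0.516 from 0.

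Model 000017F:1694097-1697395, at 6406 to 7280 CPM in the 72 h libraries and 4117 to 5385 CPM in the late ones, shows that steady by this bound does not mean equal. Its log2 fold changes were −0.42 ± 0.18 (edgeR adjusted p = 0.0600) and −0.59 ± 0.18 (adjusted p = 0.0112), and its farthest bound was 0.974. Model 000170F:140508-144276 leaned upward, at 1147 to 1887 CPM at 72 h and 1536 to 2330 CPM late, with log2 fold changes of 0.38 ± 0.20 and 0.47 ± 0.20 and a farthest bound of 0.900. The bounds of these last 2 pass 1 under some alternatives.

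Few models were called for a difference of the step between the wings. The difference of the hindwing and the forewing log2 fold change was called for 0 of 13282 models by edgeR without a block, and 291 (2.19%) had an unadjusted p below 0.05. On simulated counts this test called 5 of 50 models with a 2-fold difference and 27 of 50 with a 4-fold difference. The 0 calls therefore do not show that the steps were equal. The DESeq2 Wald test called 4. Because forewing and hindwing of one number deviated together, the same difference was also fitted with each stage and number as a block, which removes what the wings of a number share. That fit called 94 models (0.708%). In 33 the hindwing step was higher and in 61 lower. Of the 94, 78 (83%) also had a called step in at least 1 wing, against 58.9% of all tested models. The ratio of the wings was taken as the absolute log2 ratio of mean CPM, with 0.1 CPM added to each mean. It was larger at 72 h than late for 78 of them (83%), against 59.1% of all tested models. The fit chose the 94 by the same wing differences, so these shares are a description. The count moved with single numbers. Without both late libraries of number 1, 2 or 3 it was 30, 26 and 34. Without both 72 h libraries of number 1 or 2 it was 62 and 60, and without those of number 3 it was 606. The models named next were chosen after their values were seen, and none of them was called in the edgeR fit without a block, whose adjusted p was 0.311 for the first and 0.9999 for the others.

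Only 2 models were called in opposite directions in the wings. Model 000078F:105509-119301 stood at 21.7, 10.3 and 21.3 CPM in 72 h forewings and 45.3, 8.96 and 16.8 CPM in 72 h hindwings. Late forewings stood at 239, 83.8 and 85.8 CPM and late hindwings at 0.563, 4.73 and 8.43 CPM. At 72 h the wings overlapped, and late every forewing was above every hindwing. The forewing step was 2.94 ± 0.67 on the log2 scale (edgeR adjusted p = 0.00116) and the hindwing step −2.38 ± 0.68 (adjusted p = 0.0066). The hindwing call was lost without 72 h number 1 (−1.52, adjusted p = 0.0679). The forewing step was 2.25 without late number 1 and the hindwing step −3.14 without late number 3. The difference was −5.32 ± 0.95 without a block (adjusted p = 0.311) and −4.97 ± 0.79 with it (adjusted p = 0.0147). With 1 number left out in turn, the blocked value lay between −5.94 and −3.95 and was called in 4 of 6 fits.

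The nearby model 000078F:124923-128484 had the same late split at a lower level. Late forewings stood at 34.7, 18.03 and 6.65 CPM and late hindwings at 0, 1.11 and 0.712 CPM. Its difference was −7.34 ± 1.66 without a block. The blocked difference was −7.17 ± 1.47, with an edgeR adjusted p of 0.0599, above the threshold for a call. The DESeq2 Wald test, without a block, did call it (adjusted p = 0.0178). Across earlier stages the first of the pair was present in both wings, at means of 60.01 ± 2.44 and 73.1 ± 13.5 CPM in the 5th instar and 24.3 ± 10.7 and 51.5 ± 18.9 CPM in the prepupa.

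The second model with opposite calls, 000035F:1578656-1586581, rests on single libraries. It stood at 25.3, 13.9 and 4.09 CPM in 72 h forewings and 309, 139 and 6.04 CPM in 72 h hindwings, and at 205, 24.9 and 17.2 CPM in late forewings and 27.4, 13.0 and 7.84 CPM in late hindwings. The groups overlapped in both wings. Its forewing step of 2.52 ± 0.998 (edgeR adjusted p = 0.0416) fell to 0.54 without late number 1 (adjusted p = 0.654), and was also not called without 72 h number 2 or 3 (adjusted p = 0.0978 and 0.135). Its hindwing step of −3.24 ± 1.03 (adjusted p = 0.0128) was −2.17 without 72 h number 1 (adjusted p = 0.0868), was −3.86 without late number 1 and lost its call without late number 3 (adjusted p = 0.0554). The forewing step was 3.18 without 72 h number 1. The difference was −5.75 ± 1.43 without a block (adjusted p = 0.9999) and −4.62 ± 0.71 with it (adjusted p = 0.0133), and the latter was called in 4 of 6 fits with 1 number left out.

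In other models the ratio of the wings changed between stages while both wings of a number moved together. Hindwing over forewing CPM of 000233F:221617-234164 was 4.62, 5.12 and 5.14 in the 3 numbers at 72 h and 0.659, 0.888 and 0.885 late. The levels behind the 72 h ratios were very uneven, at 5.30, 0.652 and 0.178 CPM in forewings and 24.5, 3.33 and 0.915 CPM in hindwings. The ratios were therefore far more even than the levels. At 0.178 and 0.915 CPM, however, the ratio of number 3 rests on few counts, and no counting interval was worked out for it. The blocked difference was −2.52 ± 0.24 (edgeR adjusted p = 0.00177), against −2.55 ± 1.23 without a block (adjusted p = 0.9999). In 000023F:171813-181841 the ratio went from 0.232, 0.521 and 0.520 at 72 h to 1.39, 1.41 and 1.32 late, a blocked difference of 1.69 ± 0.22 (adjusted p = 0.00615) against 1.60 ± 0.749 without a block (adjusted p = 0.9999). Both wings rose in this model, by 2.00 ± 0.54 in the forewing and 3.598 ± 0.58 in the hindwing. In 000082F:684955-698207 the ratio went from 0.550, 0.610 and 0.764 to 1.23, 1.5 and 1.3, a blocked difference of 1.07 ± 0.14 (adjusted p = 0.00636) against 1.02 ± 0.391 without a block (adjusted p = 0.9999). With the block, these 3 were called in 6 of 6 fits that left out 1 number.

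**Figure D5:**
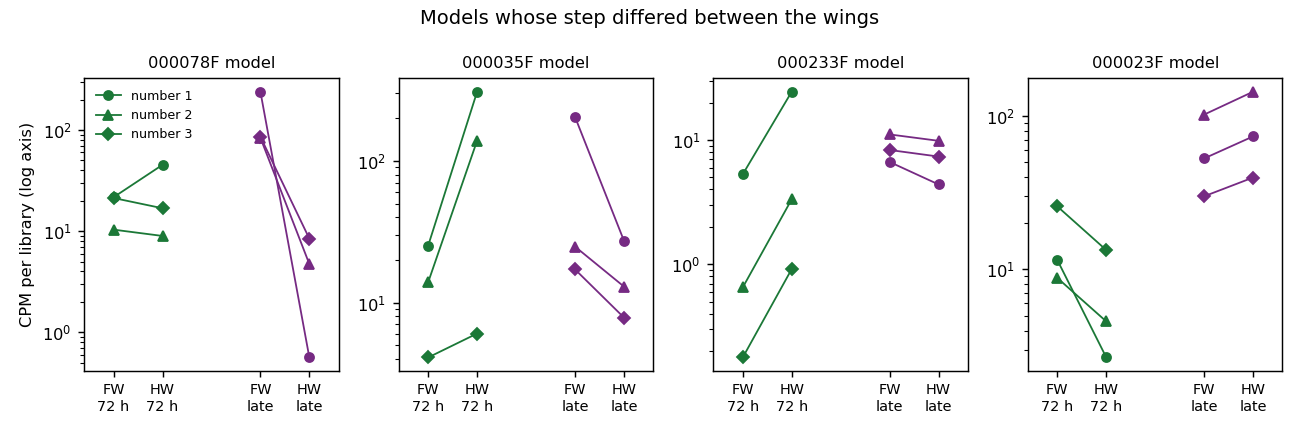
CPM per library (log axis) of 4 models with a different step in the wings; each line joins the forewing (FW) and the hindwing (HW) library of one number, green at 72 h and purple in the late pupa. The lines of a stage run nearly parallel in the 000233F model, while in the 000078F model the wings separate late, with forewings at 83.8 to 239 CPM and hindwings at 0.563 to 8.43 CPM.

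No library had a median position near the other stage. For each stage and number, models were chosen in a fit without both of its libraries, and each of these libraries was placed on a log2 CPM scale from the mean of the other libraries of its stage and wing (0) to the mean of the other stage (1). The median position over models with a log2 fold change of at least 1 in both wings was 0.0302, 0.0364 and 0.0389 for the 72 h forewings and 0.0750, 0.0207 and 0.0218 for the 72 h hindwings. For late forewings it was 0.0292, 0.0175 and 0.0074, and for late hindwings 0.0177, 0.0173 and 0.0117. Number 3 at 72 h, which differed most from its group, thus had a median close to its own stage. Among fallers alone its forewing stood at 0.119 and its hindwing at 0.0481, and among risers alone both stood at 0.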

How the data were processed

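The authors deposited whole-number read counts per gene model, not normalized, for 24 wing libraries. TopHat, bedtools and DESeq2 are listed without version or role, per the submitters' processing notes. Build, annotation and strand use: not given in the sources used here. Of 19234 models on 811 contigs, 488 had no count and the spans of 3767 overlap another model's, where reads can be divided or counted for both. No model could be given a gene name, so the gene lists, cell markers and label check by a known gene could not be used, and near-identical copies could not be marked. Another 14 libraries tied to annotation were not analysed here.

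filterByExpr of edgeR 4.0.16 (R 4.3.3; minimum count 10, minimum total 15) kept 13282 models with at least 99.9% of each library's counts. Libraries were scaled with TMM factors. glmQLFit and glmQLFTest (two-sided) were fitted to all 24 libraries with 8 group means; the common biological coefficient of variation was 38.7%. Models were called at a Benjamini-Hochberg adjusted p below 0.05. SE is the size of the log2 fold change over the square root of F. CPM comes from the TMM-scaled totals, and a zero or near-zero group makes a fitted fold depend on the prior count. DESeq2 1.42.0 was an alternative.

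Models were named by a rule: called in both wings with one direction, mean log2 CPM of 3 or more, no overlap of stages and no span overlap; then the 8 steepest risers and fallers, the 5 highest at each stage among those changed by 2 or more, the 2 longest runs each way and the 3 most abundant steady models. The part of the rule for the wing difference found no called model. The comparison, the lists and the rules were chosen with earlier results of these data known. Replicate numbers come from the labels. Wings of the same stage and number correlated (r from 0.613 to 0.757, different numbers from −0.588 to −0.161), which was taken as pairing for the wing difference. Deviations sum to 0 within a group, which makes some values negative. Stages of the same wing and number did not correlate (−0.0303 to 0.0745). On simulated counts for 13120 models, the forewing test called 21, 39, 44 and 48 of 50 models changed 2-, 4-, 8- and 16-fold and 7 of 12920 unchanged ones. The test of the wing difference called 5, 27, 39 and 43 of 50, and 6 of 12920. Simulated libraries were drawn independently, with the same spread for a model at all stages, and only models above a minimum level were changed. In the data the wings of a number deviated together and 72 h libraries spread more than late ones, so these rates need not hold there.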

Additional observations from a re-analysis of the deposited data

Results flagged for a closer look

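The difference of the step between hindwing and forewing was tested as an interaction and, with each stage and number as a block, was called by edgeR for 94 of 13282 models; without the block it was called for 0. Of the models with opposite calls, 000078F:105509-119301 had a blocked difference (hindwing minus forewing, log2) of −4.97 and 000035F:1578656-1586581 of −4.62. Lower hindwing steps were also found for 000233F:221617-234164 (−2.52), 000021F:1123598-1125064 (−5.12) and 000078F:1810253-1832341 (−2.40), and higher ones for 000023F:171813-181841 (1.69), 000082F:684955-698207 (1.07) and 000070F:110353-122163 (1.27).

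In 000021F:1123598-1125064 the 72 h libraries ran from 0 to 143 CPM in forewings and from 0.183 to 3089 CPM in hindwings, with number 1 highest and number 3 lowest in both wings. In 000070F:110353-122163 number 3 was the highest at 72 h, at 77.9 CPM in the forewing and 34.8 CPM in the hindwing, against 3.75 to 12.5 CPM in the others, and all 6 late libraries lay between 283 and 334 CPM. The span of 000078F:1810253-1832341 overlaps another model, so its counts are uncertain.

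Model 000131F:943455-955088 had a blocked difference of −8.25 (edgeR adjusted p = 0.0276), and its span also overlaps another model. It stood at 6.47 to 15.3 CPM in the 6 libraries at 72 h. Late, forewing number 1 held 12.3 CPM and the other 5 libraries held 0, so the difference rests on that library: without late number 1 the blocked value was 0.38.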

How the results depend on the processing

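Each of the 12 libraries was left out in turn, and scaling, filter, test, fitted libraries and block were changed one at a time. Leaving out 1 library gave 6218 to 6504 called models in the forewing, 6207 to 6549 in the hindwing, 5520 to 5945 shared and 55 to 68 runs. The DESeq2 Wald test called 7268 and 7247 models, with 6352 shared. Each wing fitted alone on its 6 libraries gave 5416 and 5077, with 4395 shared. With only the 12 libraries of both stages, 5357 models were shared. The replicate block by number, which does not pair across stages, called 7114 and 7164, with 6254 shared. The even split of risers and fallers changed its majority under some settings: DESeq2 size factors gave 3476 up and 3442 down in the forewing, and moved the median log2 fold change by 0.0195 there. Of the named models' alternatives, 746 kept call and direction, 2 lost the call (000478F:147002-151903, hindwing) and 0 reversed. Of 13 alternatives for each step of the models with opposite calls, the call of 000035F:1578656-1586581 was lost in 7 for the forewing and 4 for the hindwing, and that of 000078F:105509-119301 in 0 and 2. The count of wing differences was 4 with the Wald test, 94 with the replicate block, 1 without both 72 h libraries numbered 3, and 0 to 1 without 1 library. With the replicate block and 1 number left out, added after seeing the data, it was 62, 60 and 606 without 72 h numbers 1, 2 and 3 and 30, 26 and 34 without late numbers 1, 2 and 3. The wing difference of 000131F:943455-955088 turned from −8.31 to 0.33 without forewing late number 1 (range −8.92 to 0.33), and to 0.38 (range −8.93 to 0.38) with the block. That of 000070F:110353-122163 turned from 1.19 to −0.50 without forewing 72 h number 3 (range −0.50 to 3.13). Runs numbered 220 with no minimum fold change. The bound of 000017F:1694097-1697395 was 1.01 with no filter, 1.16 with only the 12 libraries, and 0.965 to 1.06 without 1 library; that of 000170F:140508-144276 was 0.845 to 1.06. With models changed by 3 or more, positions were 0.0097, 0.0487 and 0 for 72 h forewings 1, 2 and 3, 0.0395 for 72 h hindwing 1, and 0.0096 and 0 for late hindwings 1 and 3. Other causes were not tested. Depth limits models at a few counts: folds against 0 counts are bounds, and those against 1 to 3 counts have wide counting intervals.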
